A study of Mus musculus with 2 samples.

Results

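The gene set described here is made of 36 mouse genes that encode the enzymes and regulators of cholesterol and fatty acid synthesis, out of 43346 genes in the tables. Its members were chosen by name, as the genes whose identifiers carry the listed symbols. No measured value entered that rule, but the list was drawn up with earlier results of these data known. All 36 were found in both libraries. The data are total RNA-seq of midbrain from healthy B6NCrl mouse embryos of mixed sex at embryonic day 11.5. The study has 1 group with no treatment, mutation or other condition, and 2 biological replicates, a pool of 109 embryos as replicate 1 and a pool of 88 embryos as replicate 2. Each level is given as TPM, which is relative transcript abundance corrected for transcript length, with replicate 1 first and replicate 2 second, and ± marks the SD over the 2 libraries (n = 2).

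Cells build cholesterol from acetyl-CoA through the mevalonate pathway, squalene and lanosterol, and they build fatty acids from the same acetyl-CoA by carboxylation, chain synthesis, elongation and desaturation. The SREBP transcription factors, encoded by Srebf1 and Srebf2, switch on many of these genes when membrane sterol is low, while the INSIG proteins hold them in the endoplasmic reticulum when sterol is high. The brain is known to make most of its own cholesterol, because lipoproteins of the blood hardly enter it once the blood-brain barrier has formed.

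The libraries held 38884247 and 45975100 expected counts on genes, and 35 of the 36 members had at least 500 counts in each. Otx2, a transcription factor that marks forebrain and midbrain, had 169 and 171 TPM, and all 6 midbrain markers reached 1 TPM in both libraries. Liver and adipose tissue, which make much fat, were hardly represented by their markers. None of 6 liver markers and none of 5 adipocyte markers reached 1 TPM, their summed levels were 1.49 and 1.40 TPM for liver and 0.40 and 0.10 TPM for adipocyte, and Alb, Serpina1a, Lep and Cidec had 0 counts in both. Mbp, which encodes a protein of the cholesterol-rich myelin made by mature oligodendrocytes, had 10.3 and 9.91 TPM, while Mag, Mog and Mobp, markers of the same cells, stayed under 1 TPM in both libraries. RNA of blood and connective tissue was present. The 8 erythroid markers summed to 19614 and 19658 TPM, 6 mesenchymal markers to 708 and 675 TPM, 6 endothelial markers to 101.5 and 101.5 TPM, and 6 microglia and macrophage markers to 66.2 and 69.9 TPM, and their part in the levels below was not tested. In bulk RNA, the number of cells that use a gene and the RNA per cell cannot be told apart.

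Almost the whole gene set was expressed. At 1 TPM or more in both libraries stood 35 of 36 members, against 32.1% of all genes and 58.2% of protein-coding genes, and the exception was Elovl7. The same 35 also reached 10 TPM, and 11 reached 100 TPM in both libraries. The median member had 51.5 and 51.0 TPM, beside 18.6 and 18.6 TPM for the median protein-coding gene at 1 TPM or more. Counted among protein-coding genes, 15 members lay at or above the 90th percentile of level. Together the 36 members took 0.700% and 0.698% of all gene counts.

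**Figure D1:**
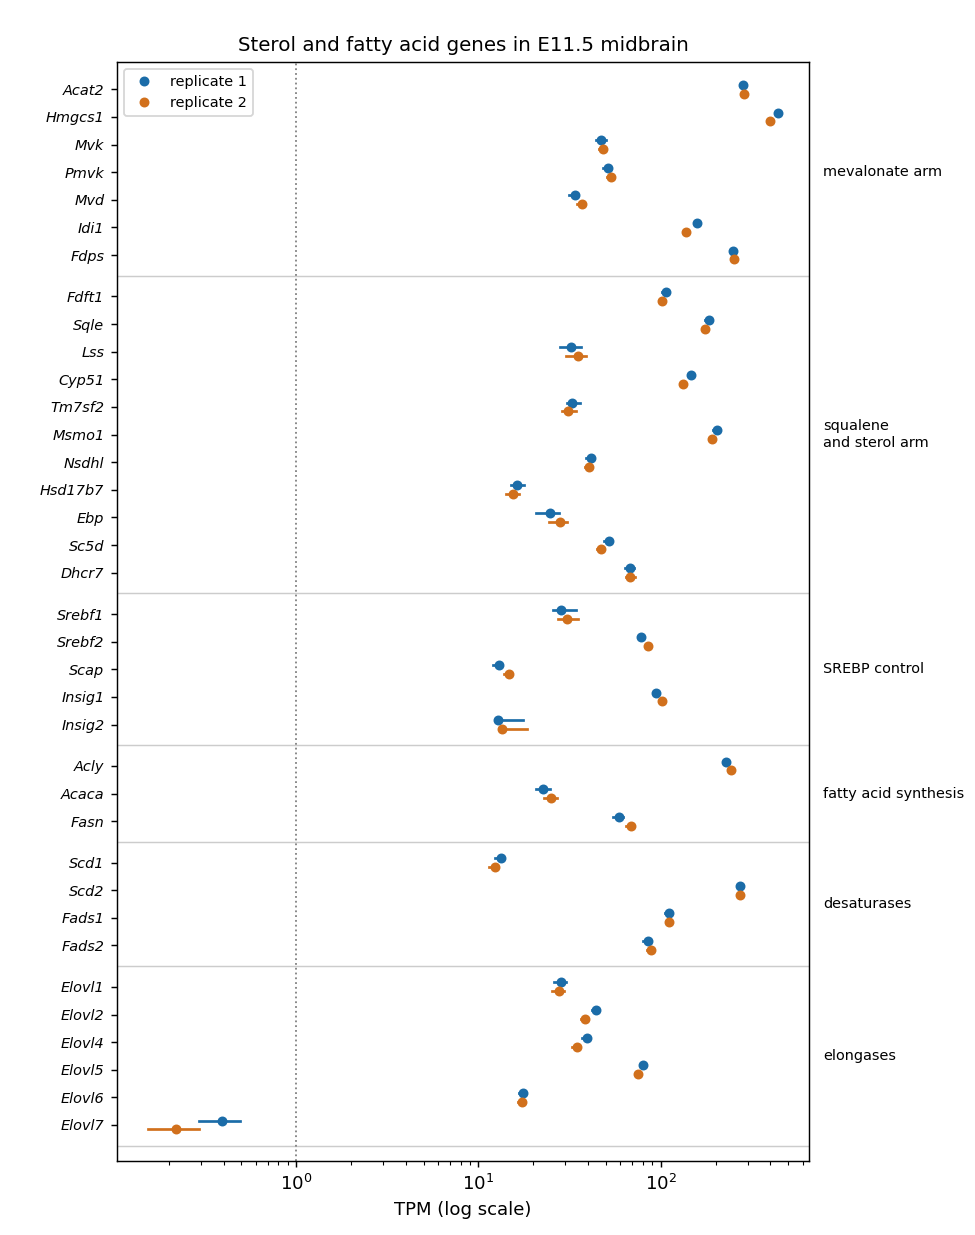
TPM of the 36 members on a log scale, in pathway order from top to bottom, with replicate 1 in blue above replicate 2 in orange; lines are the deposited intervals, hidden by the point where narrow and off-centre where the point estimate differs from the posterior mean, and the dotted line marks 1 TPM. Hmgcs1 is highest at 439 and 399 TPM, Elovl7 alone lies under the dotted line, and the paired points nearly coincide for most genes.

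The mevalonate arm, from acetyl-CoA to farnesyl diphosphate, held the highest levels, and they were uneven along the arm. Hmgcs1, which condenses acetyl-CoA with acetoacetyl-CoA to HMG-CoA, had 439 and 399 TPM (mean 418.8 ± 28.1) and was the highest member. Its gene lies at chr13:119690379-119708260 on the plus strand (mm10). Acat2, the cytosolic thiolase that makes acetoacetyl-CoA, had 282 and 286 TPM (283.8 ± 2.92). Fdps, which makes farnesyl diphosphate, had 249 and 252.5 TPM (250.8 ± 2.33). These 3 genes stood at the 97.5th percentile of protein-coding genes or above.

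Idi1, which isomerises isopentenyl diphosphate, was lower, with 159 and 138 TPM (148.5 ± 14.6). The 3 genes between Hmgcs1 and Idi1 were lower again. Mvk, the mevalonate kinase, had 47.2 and 48.3 TPM (47.75 ± 0.813). Pmvk, the phosphomevalonate kinase, had 51.2 and 53.6 TPM (52.39 ± 1.72). Mvd, the decarboxylase that follows, had 33.7 and 36.9 TPM (35.3 ± 2.24).

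Levels of neighbouring steps were compared within each library by the deposited intervals, which were called apart only where they did not overlap, in the same direction, in both libraries. Hmgcs1 was 9.30-fold and 8.26-fold above Mvk in replicates 1 and 2, and Idi1 was 4.71-fold and 3.75-fold above Mvd. Both of these pairs were apart. Mvk and Pmvk were not apart, with Mvk at 0.922-fold and 0.901-fold of Pmvk. The arm was thus high at its start and end and lower at the 3 phosphorylation and decarboxylation steps in both pools, and the 7 genes summed to 1260 and 1214 TPM.

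The squalene and sterol arm, which converts farnesyl diphosphate to cholesterol, rose and fell from step to step. Fdft1, the squalene synthase that commits the pathway to sterols, had 107 and 101 TPM (104.1 ± 3.76). Sqle, the squalene epoxidase and a rate-limiting step, had 183 and 174 TPM (178.9 ± 6.38). Lss, which folds the epoxide into lanosterol, had only 32.1 and 35.1 TPM (33.6 ± 2.08). Sqle was 5.71-fold and 4.97-fold above Lss, and the intervals were apart.

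Of the enzymes that trim lanosterol, Cyp51, the lanosterol demethylase, had 147 and 132 TPM (139.7 ± 10.8). Msmo1, the methylsterol oxidase, had 202 and 191 TPM (196.8 ± 7.86) and was the highest gene of the arm over all transcripts. On protein-coding transcripts alone it had 146 and 136 TPM, below Sqle with 182 and 172 TPM. These 2 oxidative enzymes stood well above the reductases and dehydrogenases that act with them. Tm7sf2, a sterol reductase, had 32.7 and 30.8 TPM (31.76 ± 1.33). Nsdhl, the sterol dehydrogenase and decarboxylase, had 41.5 and 40.4 TPM (40.96 ± 0.764). Hsd17b7, the keto-reductase of the same complex, had 16.2 and 15.4 TPM (15.81 ± 0.58), the lowest level in the arm.

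Msmo1 was 4.87-fold and 4.73-fold above Nsdhl, and Nsdhl was 2.56-fold and 2.62-fold above Hsd17b7, each apart in both libraries. The final steps had intermediate levels. Ebp, the sterol isomerase, had 24.7 and 27.9 TPM (26.28 ± 2.31). Sc5d, the sterol desaturase, had 51.7 and 47.2 TPM (49.45 ± 3.2). Dhcr7, a reductase of the last step, which is mutated in Smith-Lemli-Opitz syndrome in humans, had 67.7 and 68.3 TPM (67.96 ± 0.424).

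Dhcr7 was 1.31-fold and 1.45-fold above Sc5d, and Ebp was at 0.477-fold and 0.591-fold of Sc5d. Over both arms and the first fatty acid steps, 18 of 19 neighbouring pairs were apart, with Mvk and Pmvk the exception. By the rule used, a pair counts as apart only if the same gene is higher in both pools.

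The start sites of these genes were looked up because the SREBP factors act at promoters together with factors that bind CCAAT and GC boxes. For 30 of the 36 members, RefSeq sequence of GRCm38.p6 was at hand for the 250 bases before a start site, and 4 windows are shown. Hmgcs1 is shown as the highest member and the only one of the 30 with a match to a sterol element, Mvk as the window with 5 CCAAT boxes, Sc5d as a window with an E-box, and Fasn as the fatty acid synthase. Capitals mark matches on either strand to the sterol element TCACNCCAC, the E-box CACGTG and the CCAAT box, which reads ATTGG on the other strand. The windows are chr13:119690101-119690350 (plus strand) for Hmgcs1, chr5:114444019-114444268 (plus strand) for Mvk, chr9:42264301-42264550 (minus strand) for Sc5d and chr11:120824548-120824797 (minus strand) for Fasn.
Hmgcs1: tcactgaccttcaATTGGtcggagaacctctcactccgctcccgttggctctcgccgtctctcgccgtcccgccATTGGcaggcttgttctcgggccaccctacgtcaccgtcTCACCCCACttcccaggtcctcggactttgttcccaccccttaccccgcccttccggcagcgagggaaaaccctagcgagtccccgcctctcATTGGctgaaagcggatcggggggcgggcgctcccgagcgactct
Mvk: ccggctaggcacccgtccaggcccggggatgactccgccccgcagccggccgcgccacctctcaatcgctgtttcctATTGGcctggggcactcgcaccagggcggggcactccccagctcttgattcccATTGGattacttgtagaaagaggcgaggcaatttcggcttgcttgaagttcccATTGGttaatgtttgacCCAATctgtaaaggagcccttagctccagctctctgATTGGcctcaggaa
Sc5d: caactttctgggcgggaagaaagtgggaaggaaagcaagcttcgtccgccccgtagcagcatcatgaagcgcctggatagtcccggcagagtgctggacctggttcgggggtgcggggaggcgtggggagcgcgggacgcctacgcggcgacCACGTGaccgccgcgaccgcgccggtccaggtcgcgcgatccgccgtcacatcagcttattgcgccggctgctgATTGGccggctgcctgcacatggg
Fasn: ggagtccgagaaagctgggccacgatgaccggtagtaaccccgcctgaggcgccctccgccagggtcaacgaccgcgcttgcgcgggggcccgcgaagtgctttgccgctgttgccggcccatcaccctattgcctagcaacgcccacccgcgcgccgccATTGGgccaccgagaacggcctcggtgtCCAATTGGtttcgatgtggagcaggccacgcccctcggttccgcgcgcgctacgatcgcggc

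In the Hmgcs1 window the sterol element began 137 bases before the start, and 3 CCAAT boxes lay around it. In the Fasn window 2 of the 3 CCAAT matches overlap each other, on opposite strands. A CCAAT box stood in 21 of 30 members (70%), against 37.5% of 27025 genes and 42.4% of 6566 genes at 10 TPM or more. Among cholesterol genes it was in 14 of 15, among fatty acid genes in 3 of 10, and among the regulators in 4 of 5. The GC box GGGCGG was in 25 of 30 members (83.3%), against 35.4% of all genes and 66.4% of genes at 10 TPM or more. It was in 14 of 15 cholesterol genes, 6 of 10 fatty acid genes and 5 of 5 regulators. E-boxes were in 6 of 30 (20%), against 6.86% and 10.4%, and the sterol element in 1 of 30 (3.33%), against 1.22% and 1.17%. These are matches of letters within 250 bases, not measured binding.

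Among the genes that control the pathway, the sterol-type factor and 1 of the 2 INSIG genes dominated. Srebf2, whose protein mainly drives cholesterol genes, had 78.0 and 85.6 TPM (81.83 ± 5.37). Srebf1, whose protein mainly drives fatty acid genes, had 28.4 and 30.7 TPM (29.54 ± 1.61). Srebf2 was 2.75-fold and 2.79-fold above Srebf1. Insig1, itself a known SREBP target, had 94.7 and 101 TPM (98.0 ± 4.61). Insig2 had 12.8 and 13.5 TPM (13.12 ± 0.481), which placed Insig1 7.41-fold and 7.52-fold above it. Scap, the sterol sensor that escorts the SREBP proteins to the Golgi, had 13.04 and 14.8 TPM (13.92 ± 1.24), at 0.138-fold and 0.146-fold of Insig1. All 3 of these pairs were apart in both libraries.

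Fatty acid synthesis from citrate was led by its first enzyme. Acly, which splits citrate into cytosolic acetyl-CoA and so feeds both pathways, had 228 and 242 TPM (234.5 ± 9.91). Acaca, the carboxylase that makes malonyl-CoA and is rate-limiting, had 22.6 and 24.97 TPM (23.76 ± 1.71). Fasn, which builds palmitate, had 58.9 and 68.7 TPM (63.78 ± 6.91). Acly was 10.1-fold and 9.67-fold above Acaca, and Fasn was 2.61-fold and 2.75-fold above Acaca, both apart in both libraries. The longer transcript Acaca-201 (9026 nt) had 13.4 and 13.6 TPM from 3195 and 3889.62 counts. Acaca-206, a model of 431 nt annotated as coding, took 18.17% and 23.15% of the gene's level from 36.41 and 61.45 counts. The level of Acaca and both ratios are uncertain to that extent.

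The desaturases, which add double bonds to fatty acids, included the most uneven pair of close relatives at high level. Scd2, the stearoyl-CoA desaturase known as the main form of mouse brain, had 273 and 272 TPM (272.2 ± 0.898). Scd1, known as the main form of liver and fat, had 13.3 and 12.3 TPM (12.78 ± 0.665). Scd2 (chr19:44293674-44306864, plus strand) was 20.6-fold and 22.1-fold above Scd1 (chr19:44394455-44407879, minus strand). Both genes had fractional counts, as arise when reads are divided between similar sequences, so the split between them is uncertain to that extent.

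The desaturases of polyunsaturated fatty acids were close to each other in level. Fads1 (chr19:10182888-10196877, plus strand) had 111 and 112 TPM (111.2 ± 0.453). Its neighbour Fads2 (chr19:10062765-10101746, minus strand), which acts before it, had 84.8 and 88.6 TPM (86.69 ± 2.65). Fads2 stood at 0.765-fold and 0.794-fold of Fads1, a small difference that was still apart in both libraries.

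The 6 elongases, which lengthen fatty acids beyond palmitate, ranged from 0.305 to 77.9 TPM, and the 5 others than Elovl7 lay between 17.5 and 77.9 TPM. Elovl5, which acts on polyunsaturated chains, was highest with 80.2 and 75.5 TPM (77.88 ± 3.32). Elovl2, which acts on longer polyunsaturated chains, had 44.1 and 38.2 TPM (41.15 ± 4.17). Elovl4, needed for very long chains of retina, skin and brain, had 39.2 and 34.7 TPM (36.92 ± 3.19). Elovl5 was 1.82-fold and 1.98-fold above Elovl2, and Elovl2 was 1.13-fold and 1.10-fold above Elovl4.

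Lower still were the elongases of saturated chains. Elovl1, which makes saturated very long chains, had 28.3 and 27.5 TPM (27.93 ± 0.552). Elovl6, which takes palmitate to stearate, had 17.6 and 17.4 TPM (17.48 ± 0.134), at 0.219-fold and 0.230-fold of Elovl5. Elovl7 was nearly silent, with 0.39 and 0.22 TPM (0.305 ± 0.12) from 56 and 38 counts, and Elovl1 lay 72.6-fold and 125-fold above it. All 9 pairs of related proteins compared, in the regulators, desaturases and elongases, were apart in both libraries.

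**Figure D2:**
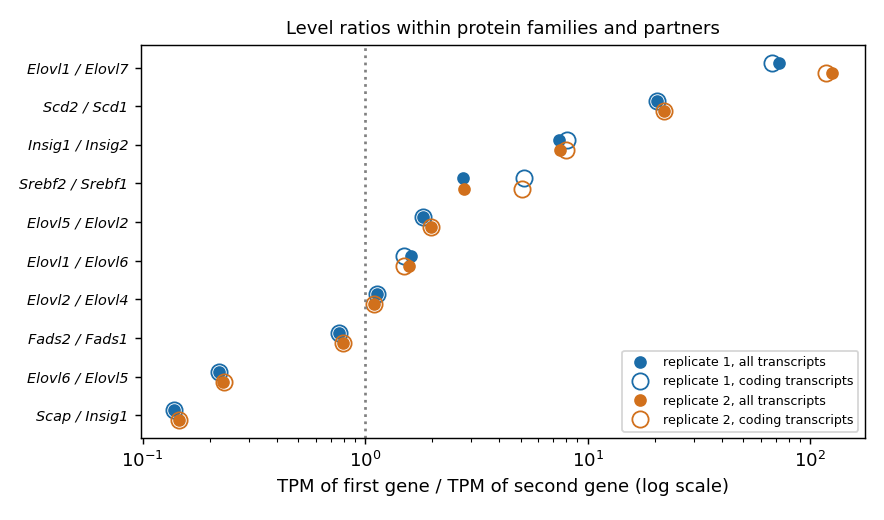
Ratio of TPM between the first and the second gene of each pair (log scale), for all transcripts (filled) and protein-coding transcripts only (open), with replicate 1 in blue and replicate 2 in orange. Scd2 over Scd1 reads 20.6 and 22.1 and Elovl1 over Elovl7 reads 72.6 and 125, while the open circles of Srebf2 over Srebf1 lie to the right of the filled ones at 5.17 and 5.08.

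With all 36 genes put in order of mean level, the top of the order was resolved by the deposited intervals over all transcripts. The first 9 steps, from Hmgcs1 through Acat2, Scd2, Fdps, Acly, Msmo1, Sqle, Idi1 and Cyp51 to Fads1, were each apart from the next in both libraries. On protein-coding transcripts alone Msmo1 (146 and 136 TPM) came below Sqle and Idi1 (158 and 137 TPM), while the other 9 of these genes kept their order by mean level. Of all 35 steps 14 were apart and 21 were not. Fads1 was not apart from Fdft1, nor Fdft1 from Insig1, and most neighbours below 100 TPM likewise could not be ranked.

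The 18 cholesterol enzymes were compared as a list with the 13 fatty acid enzymes. Their medians were 59.7 and 60.9 TPM for cholesterol enzymes and 44.1 and 38.2 TPM for fatty acid enzymes. On the log2(TPM + 1) scale the difference of medians was 0.42 in replicate 1 and 0.65 in replicate 2 (mean 0.53 ± 0.165). With 2 libraries the smallest p of an exact sign-flip test is 0.5, so none is given. Both lists contain genes above 200 TPM and genes below 20 TPM, and the difference of medians is small beside that range. Without Elovl7 the mean difference was 0.22.

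The transcript tables divide each gene's level among its annotated transcripts. Of the members, 13 have 1 annotated transcript. The other 23 have several, and 22 of them had the same leading transcript in both libraries, near the 91.4% of all 9585 genes of that kind. In 10 of the 23 the leader held 90% or more in both libraries. Ebp was the exception, led by Ebp-201 in replicate 1 (33.97% against 35.2% in replicate 2). Ebp-203 led in replicate 2 (31.05% in replicate 1 and 40.27% in replicate 2), from 87.48 and 153.7 counts. The TPM intervals of these transcripts overlapped within each library, so the leader of Ebp was not resolved.

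In 4 members less than 80% of the level came from protein-coding transcripts in both libraries. Lss had 53.4% and 50.2% on coding transcripts, while 26.04% and 17.87% went to Lss-205, a short transcript with a retained intron. Srebf1 had 53.1% and 54.9%. Its leading transcript was a noncoding model of 367 nt with 11.0 and 11.3 TPM from 79.03 and 97.22 counts. The main coding transcript of 4299 nt had 10.8 and 11.1 TPM from 1216.48 and 1489.55 counts. The level of the short model thus rests on far fewer reads, and its interval overlapped that of the coding transcript. Msmo1 gave 26.13% and 26.98% to a noncoding processed transcript, and Ebp gave 26.17% and 24.53% to Ebp-202, which retains an intron.

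Counting coding transcripts only moved 3 of the 29 pair ratios by more than 1.5 times and reversed 0. Sqle over Lss became 10.6 and 9.79, Cyp51 over Lss became 8.50 and 7.47, against 4.58 and 3.77 over all transcripts, and Srebf2 over Srebf1 became 5.17 and 5.08. Lss was thus lower still beside its neighbours when noncoding transcripts were left out. Of these, the short Lss-205 had only 73.04 and 65.43 counts, and the short processed transcript Lss-202 had 14.82 and 45.08. The longer Lss-204, with a retained intron, had 525.87 and 673.95 counts, and the coding Lss-201 had 2013.61 and 2510.03. The coding share of Lss is uncertain to that extent. Acly used a pair of coding transcripts, Acly-207 with 61.32% and 59.03% and Acly-203 with 37.95% and 38.92%. The leading share differed most between libraries in Elovl1, with 38.11% and 50.82%, and the leading transcript of Insig2 held 78.03% and 86.18%. For both of these transcripts the TPM intervals overlapped between libraries.

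**Figure D3:**
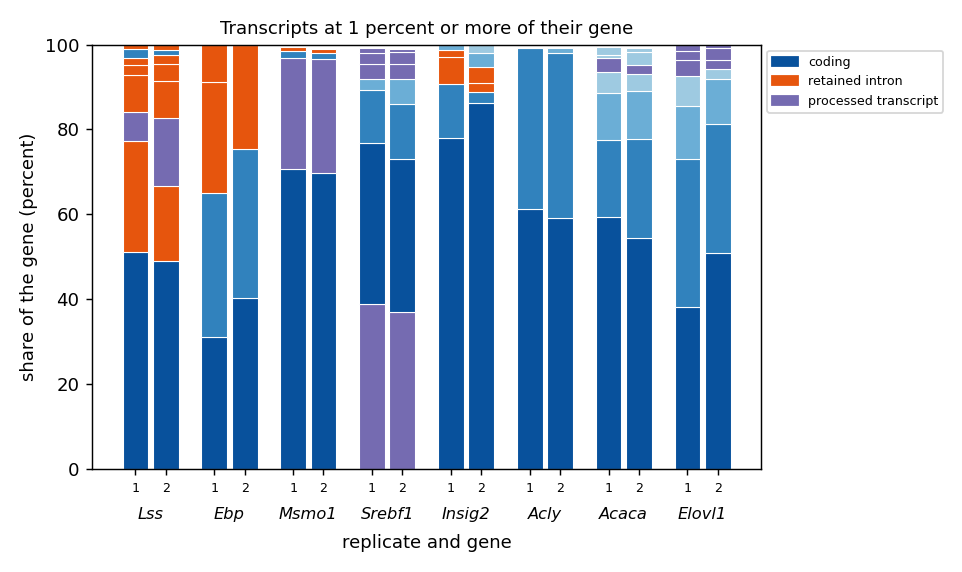
Share of each gene's TPM (percent) held by each of its transcripts, for 8 members with replicate 1 left of replicate 2; segments are transcripts at 1% or more, shades of blue are separate coding transcripts, orange marks retained introns and purple other noncoding models, and a blank top is transcripts under 1%. The bars of Lss, Ebp, Msmo1 and Srebf1 have large orange or purple segments in both replicates, while Acly is almost wholly blue.

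Exons of 12 members overlap exons of another annotated gene, and the sources used here do not say whether reads were counted by strand. The largest overlaps with a gene of substantial level were Fdft1 with the antisense Ctsb (18.3% of Fdft1 exon bases; Ctsb had 81.6 and 79.2 TPM) and Tm7sf2 with Vps51 on the same strand (12.1%; Vps51 had 28.8 and 37.6 TPM). The largest overlap of all was of Fdps with the protein-coding Gm43738 on the same strand (26.7%), for which no level was given. The levels of Fdft1, Tm7sf2 and Fdps are uncertain to that extent. Counts were whole in both libraries for 25 members and fractional for 11, among them Acat2, Fdps, Scd1 and Scd2, whose split of reads is uncertain.

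The 2 pools were then set against each other as log2 ratios of replicate 1 over replicate 2. Rounded counts went into an exact binomial test, two-sided, with Benjamini-Hochberg adjustment over 17148 genes. This compares 2 libraries, not conditions, and its p covers counting error only, not the spread between pools or from amplification. No member was called at an adjusted p under 0.05 with a difference of at least 2-fold, 0 of 36, against 2.94% of all tested genes (1.56% higher and 1.38% lower in replicate 1). By adjusted p alone 11 members were higher and 10 lower in replicate 1, beside 2955 higher and 3135 lower of all 17148 tested genes. These 21 of the 36 (58.3%) passed by adjusted p alone and 23 unadjusted, against 35.5% and 44% of all tested genes. The test gains power with depth: among genes at 10 TPM or more the share was 47.2%, and among the 35 members at that level 57.1%. In 35 of 36 members the libraries differed by less than 1.2-fold, and the median absolute log2 ratio was 0.09, as it was for all genes at 10 TPM or more.

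Among the members at 10 TPM or more the differences between pools were small, and some were higher and some lower in replicate 1. Fasn had 13392 and 18323 counts, a log2 ratio of -0.20 (exact binomial test, adjusted p = 1.94e-33). Hmgcs1 had 36800 and 40037 counts, a log2 ratio of 0.13 after scaling for depth (exact binomial test, adjusted p = 1.49e-31). Idi1 (0.20, adjusted p = 1.6e-24) and Cyp51 (0.14, adjusted p = 3.22e-16) in the same exact test were also higher in replicate 1, while Acly (-0.10, adjusted p = 4.64e-14) and Srebf2 (-0.14, adjusted p = 8.49e-13) were lower. All 5 regulators passed by adjusted p alone and all 5 were lower in replicate 1, also with spike-in scaling, with log2 ratios of -0.16 for Srebf1, -0.14 for Srebf2, -0.19 for Scap, -0.11 for Insig1 and -0.20 for Insig2.

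Of the elongases, 4 of 6 passed and all 4 were higher in replicate 1, namely Elovl2 (0.20), Elovl4 (0.19), Elovl5 (0.08) and Elovl7 (0.79). In the squalene and sterol arm 5 passed as higher and 2 as lower, in the mevalonate arm 2 and 1, in fatty acid synthesis 0 and 2, and among the desaturases none passed at an adjusted p under 0.05. These counts depended on the scaling. An alternative added after the data were seen used spike-in totals. All members together then passed as 6 higher and 17 lower in replicate 1, against 11 and 10. The median log2 ratio over all tested genes moved as well, from -0.01 to -0.07. Counts of all genes by adjusted p alone were not made with this scaling. The mevalonate arm then had 2 higher and 5 lower, the squalene and sterol arm 1 and 2, the elongases 3 and 0, and the desaturases 0 and 3, which were Scd2, Fads1 and Fads2. No test of a difference between arms was made. With the deposited intervals in place of the test, 14 members were apart between libraries, against 22.4% of genes at 1 TPM or more. Of these, 9 were higher and 5 lower in replicate 1, against 11.4% and 11.1%. Among members at 10 TPM or more this was 40%, beside 29.3% of all genes at that level. With 2 pools and no condition, a difference between embryos, dissection and library preparation cannot be told apart.

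**Figure D4:**
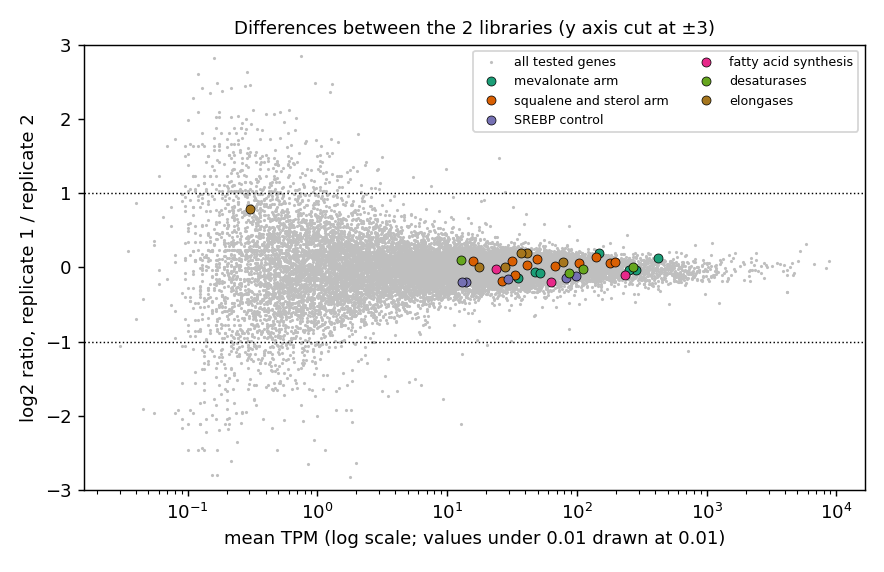
Log2 ratio of replicate 1 over replicate 2 (y axis) against mean TPM on a log scale (x axis), for all tested genes in grey and the 36 members coloured by role; dotted lines mark a 2-fold difference. All members lie between the dotted lines, and all except Elovl7 at 0.79 lie within 0.20 of 0.

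Genes of the same pathways outside the 36 members were also mostly expressed. Of 14 other sterol pathway genes 13 reached 1 TPM in both libraries, with a median over the 14 of 54.6 and 54.7 TPM. They include the electron carriers of sterol oxidation, Cyb5b with 147 and 136 TPM and Cyb5r3 with 128 and 124 TPM. By adjusted p alone 3 of the 13 tested were higher and 3 lower in replicate 1, and 0 were called. The same count over all 17148 tested genes was 2955 higher and 3135 lower.

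Of 23 other fatty acid genes 17 reached 1 TPM in both, with a median of 14.3 and 12.4 TPM. Of the 19 tested, 6 were higher and 2 lower by adjusted p alone, beside 2955 and 3135 of all 17148 tested genes. Among the enzymes shared by all elongation cycles, the levels were uneven. Tecr, the reductase of the last reaction of each cycle, had 477 and 475 TPM, above every elongase. Hsd17b12, its keto-reductase, had 108 and 102 TPM. Of its dehydratases, named after their values were seen, Hacd3 had 78.9 and 74.5 TPM, Hacd1 33.5 and 35.6 TPM, and Hacd2 7.14 and 6.20 TPM. Acsl3, which activates fatty acids, had 82.9 and 75.3 TPM. At the low end, 5 genes stayed under 1 TPM in both libraries, and they are named here after their values were seen. They were Elovl3 with 0 counts in both, which allows up to 0.0772 and 0.0653 CPM, Scd3 (0.01 and 0.04 TPM), Scd4 (0.04 and 0.01 TPM), Thrsp (0.10 and 0 TPM) and Fads6 (0.21 and 0.18 TPM).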

How the data were processed

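Per the labels, a mirVana kit was used for extraction, the input was 10 ng of RNA above 200 nt with ERCC spike-ins, and a Smart-seq protocol is cited, so cDNA was amplified and limits cover counting error only. Per the labels the assembly is mm10, and the sources used here do not give the aligner, quantifier or strand setting. The authors deposited, per gene and transcript, expected counts (estimated reads), TPM with interval bounds (a signal whose level is not given) and FPKM. The deposited transcript tables also give each transcript's percent of its gene. TPM is scaled over all rows, and spike-ins took 15.2% and 14.8% of it. Rows that are not genes held 6.89% and 6.66% of counts and were left out of tests. The intervals surround the posterior mean, and 9 members had a TPM outside them in either library.

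Symbols and coordinates came from GENCODE M21 (mm10, 42462 genes matched). The members and lists were chosen with earlier results of these data known. Named genes were all members, the markers and at most 3 highest genes of each other list, and some genes this rule takes are not reported here. Expected counts were rounded and tested where they summed to at least 20, with TMM factors of 0.998 and 1.002 from edgeR 4.0.16, and log2 ratios used a prior count of 1. Alternatives covered DESeq2 1.42.0 size factors, other scalings, filters, units and pseudocounts (main 1), and leaving out each replicate. Python 3.11.15, scipy 1.17.1 and R 4.3.3 were used.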

Additional observations from a re-analysis of the deposited data

How the results depend on the processing

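The count of 35 members at 1 TPM did not change under any alternative run, nor did the 22 shared leading transcripts. The 0 members called between libraries became 21 with no minimum ratio and 14 with the deposited intervals, and stayed 0 under DESeq2 size factors, total and spike-in scaling, no count filter and an edgeR exact test with an assumed coefficient of variation of 0.1. Over all genes that last test called 155, against 505 in the binomial test, and no filter gave 751. Spike-in scaling called 239 genes higher and 267 lower in replicate 1, against 268 and 237, and under it 5 members higher in replicate 1 lost and 7 lower in replicate 1 gained an adjusted p under 0.05, while 0 changed direction past the threshold. Under it Elovl1 and Elovl6 had log2 ratios of -0.05. The difference of medians between cholesterol and fatty acid enzymes (0.53) was 0.93 with means, 0.22 with members at 1 TPM only, and 0.42 to 0.65 with 1 replicate left out. The pairs apart numbered 28 to 29 with 1 replicate left out and 23 when a 1.5-fold difference was asked for. No paired analysis was possible because the study has 1 group. With 1 group of 2 pools, a between-library value cannot leave out a replicate.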

Other observations

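Lists of genes that move, store or burn lipid had lower medians than the 36 members, but not all were below the other fatty acid synthesis genes, whose median was 14.3 and 12.4 TPM. Of 18 genes of sterol uptake, storage and export, 17 reached 1 TPM in both libraries, and the median of the 18 was 12.6 and 13.5 TPM in replicates 1 and 2, below the members' 51.5 and 51.0 TPM. Npc2, which carries cholesterol out of lysosomes, had 74.0 and 78.8 TPM. Nr1h2, a sterol-sensing nuclear receptor, had 48.3 and 51.0 TPM. The gene at 0 counts in both was Soat2, which esterifies cholesterol in liver and intestine, named here after its value was seen. By adjusted p alone (exact binomial test) 2 of the 17 tested genes were higher and 6 lower in replicate 1, and 0 were called. The same count over all 17148 tested genes was 2955 higher and 3135 lower.

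Of 16 genes of fatty acid oxidation, 14 reached 1 TPM in both libraries, with a median of 30.1 and 32.4 TPM. Echs1, the mitochondrial hydratase, had 136 and 125 TPM. Hadhb and Hadha, the subunits of the trifunctional protein, had 87.3 and 82.3 TPM and 54.7 and 63.5 TPM. Cpt1b, the muscle form of the carnitine transferase (0.86 and 0.71 TPM), and Ppara, a nuclear receptor that drives oxidation in liver (0.48 and 0.67 TPM), stayed under 1 TPM, and both are named after their values were seen. By adjusted p alone 3 of the 16 were higher and 2 lower in replicate 1, beside 2955 and 3135 of all 17148 tested genes, and 0 were called.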
